A study of Mus musculus with 2 samples.

Results

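The mitosis genes described here are 36 genes that act in mitosis, measured in cultured mouse mast cells given an siRNA against GATA1 and in cells given a control siRNA. The members are the probes whose gene name on the array is one of 36 listed symbols, with Cdk1 also accepted under its older name Cdc2a. All 36 were on the array, through 54 probes on 16 chromosomes, out of 34730 genes on the array. Of the 36 genes, 35 were measured, meaning that at least 1 probe was well above background on both arrays. In all, 20402 genes were measured. The single Cenpf probe was not well above background on either array, so Cenpf, a large protein of the outer kinetochore, has no value.

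The study used bone marrow-derived mast cells of C57BL/6 mice, grown for 2 weeks with interleukin 3 at 10 ng/mL and then for 2 weeks with stem cell factor at 10 ng/mL added to interleukin 3. The GATA1 siRNA group was transfected with 200 pmol of an siRNA that targets GATA1, a DNA-binding regulator of mast cell, red cell and platelet genes. The control siRNA group was transfected with 200 pmol of control siRNA, and the time between transfection and harvest is not given in the sources used here. RNA from 2 animals was pooled in each group and hybridised to 1 array, so each group is 1 value per probe. No p-value and no error between animals can be given, and genes are described by the size of their difference.

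Dividing cells condense and attach their chromosomes, hold them until every kinetochore is bound to the spindle, and then separate them and divide. CDK1 with cyclin A or B starts the process, and Polo-like and Aurora kinases carry it on. The spindle checkpoint restrains CDC20, the activator of the anaphase-promoting complex, until attachment is complete. The complex then marks cyclin B and securin for destruction, which frees separase to cut the cohesin that joins sister chromatids. Most of these transcripts are made only late in the cell cycle, and promoters of many of them hold CCAAT boxes, bound by the factor NF-Y, and a cell cycle genes homology region (CHR), bound by the MuvB complexes of the DREAM, B-MYB and FOXM1 factors. Mast cells in culture keep dividing under interleukin 3 and stem cell factor.

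The promoter letters are shown because many genes of this kind share this late-cycle control in other cells. Promoter windows from 250 bases before to 50 bases after the annotated start were taken from RefSeq (GRCm38.p6), and 31 of the 36 genes matched 32 windows. The windows of 5 genes with high differences on the arrays that hold both motifs (Espl1, Ttk, Cdc20, Ccnb2 and Kif11), of Aurka, of Cdca8, whose difference was the lowest, and of Birc5, which matched neither motif, are printed 5′ to 3′ on the strand of the gene. Capitals mark CCAAT and the CHR letters TTTGAA or TTCGAA on either strand, so ATTGG and TTCAAA are the same motifs read backwards.
Espl1: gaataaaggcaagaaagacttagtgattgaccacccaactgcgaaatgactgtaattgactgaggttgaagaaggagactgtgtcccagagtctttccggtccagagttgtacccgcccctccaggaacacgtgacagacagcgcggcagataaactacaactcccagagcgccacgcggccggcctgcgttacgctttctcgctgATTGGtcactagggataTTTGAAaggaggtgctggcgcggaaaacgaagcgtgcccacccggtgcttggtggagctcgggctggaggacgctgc
Ttk: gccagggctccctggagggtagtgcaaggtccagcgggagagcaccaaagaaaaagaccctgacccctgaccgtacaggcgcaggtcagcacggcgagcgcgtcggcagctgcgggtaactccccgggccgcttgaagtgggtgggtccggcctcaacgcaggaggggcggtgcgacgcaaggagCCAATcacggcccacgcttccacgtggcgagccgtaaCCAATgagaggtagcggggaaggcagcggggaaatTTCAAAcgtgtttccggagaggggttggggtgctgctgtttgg
Cdc20: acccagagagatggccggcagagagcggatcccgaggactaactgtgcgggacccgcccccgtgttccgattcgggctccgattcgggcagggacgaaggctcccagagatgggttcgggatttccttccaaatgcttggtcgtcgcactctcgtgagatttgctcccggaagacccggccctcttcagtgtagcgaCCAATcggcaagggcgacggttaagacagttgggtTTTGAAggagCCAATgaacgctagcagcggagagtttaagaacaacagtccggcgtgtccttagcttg
Ccnb2: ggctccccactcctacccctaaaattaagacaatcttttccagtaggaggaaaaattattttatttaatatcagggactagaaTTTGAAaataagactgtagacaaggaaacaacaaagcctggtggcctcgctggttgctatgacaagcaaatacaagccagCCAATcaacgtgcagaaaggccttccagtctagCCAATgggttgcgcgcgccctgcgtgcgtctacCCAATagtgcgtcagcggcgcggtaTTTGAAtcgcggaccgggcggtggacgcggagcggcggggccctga
Kif11: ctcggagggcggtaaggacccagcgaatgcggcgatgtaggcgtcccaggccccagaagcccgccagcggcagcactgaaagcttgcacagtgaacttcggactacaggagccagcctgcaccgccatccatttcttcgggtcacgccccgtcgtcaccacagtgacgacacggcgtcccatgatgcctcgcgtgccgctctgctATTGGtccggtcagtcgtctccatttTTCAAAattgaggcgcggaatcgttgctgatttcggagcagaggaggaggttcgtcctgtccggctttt
Aurka: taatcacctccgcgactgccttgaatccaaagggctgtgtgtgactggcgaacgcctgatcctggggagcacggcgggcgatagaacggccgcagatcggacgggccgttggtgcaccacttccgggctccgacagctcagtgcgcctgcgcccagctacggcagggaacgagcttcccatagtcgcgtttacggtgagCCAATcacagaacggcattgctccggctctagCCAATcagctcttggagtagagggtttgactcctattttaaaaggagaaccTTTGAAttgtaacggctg
Cdca8: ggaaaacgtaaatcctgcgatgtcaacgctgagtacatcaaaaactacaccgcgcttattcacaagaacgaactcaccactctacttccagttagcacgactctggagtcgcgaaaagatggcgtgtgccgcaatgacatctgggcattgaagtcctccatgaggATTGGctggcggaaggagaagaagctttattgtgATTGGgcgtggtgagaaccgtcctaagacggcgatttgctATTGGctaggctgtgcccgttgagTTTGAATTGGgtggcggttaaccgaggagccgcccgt
Birc5: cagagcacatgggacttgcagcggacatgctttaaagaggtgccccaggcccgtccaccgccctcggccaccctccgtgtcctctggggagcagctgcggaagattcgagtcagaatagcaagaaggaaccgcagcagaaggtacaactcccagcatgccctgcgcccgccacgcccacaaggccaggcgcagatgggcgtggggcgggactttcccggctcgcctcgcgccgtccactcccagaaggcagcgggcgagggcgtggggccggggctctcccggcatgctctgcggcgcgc
These windows lie at chr15:102296043-102296342 (plus strand) for Espl1, chr9:83834439-83834738 (plus strand) for Ttk, chr4:118437294-118437593 (minus strand) for Cdc20, chr9:70421505-70421804 (minus strand) for Ccnb2, chr19:37376132-37376431 (plus strand) for Kif11, chr2:172370521-172370820 (minus strand) for Aurka, chr4:124936868-124937167 (minus strand) for Cdca8 and chr11:117848987-117849286 (plus strand) for Birc5.

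CCAAT occurred in 25 of the 32 member windows (78.1%), against 37.4% of all 32851 windows in the table and 37.7% of the 13867 windows of genes measured on the arrays. TTTGAA occurred in 23 windows (71.9%), against 17.9% and 12.7% in the same sets. TTCGAA occurred in 3 windows (9.38%), against 1.56% and 1.98%. CCAAT and a CHR together were found in 22 member windows (68.8%), against 7.52% and 5.94%. The variant TTTAAA was present in 9 windows (28.1%), against 13.2% and 9.46%. GATAA, the core letters of a GATA factor site, was found in 5 windows (15.6%), against 25.4% and 17.7%.

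A CCAAT that starts 10 to 60 bases before a CHR was found in 18 of 32 member windows (56.2%), against 1.72% of the windows of measured genes, a spacing chosen after the matches were seen. In Espl1 the reversed CCAAT starts at -44 and the CHR at -27 relative to the start site. In Cdc20 the CHR at -18 lies between CCAAT boxes at -53 and -8. In Cdca8 the CHR at 14 overlaps a reversed CCAAT at 19. A letter match is a description and not a binding site, and GC content also differed, with a median of 58.8% in member windows and 52.7% in all windows. The motif shares describe the chosen genes and were not tested.

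**Figure D1:**
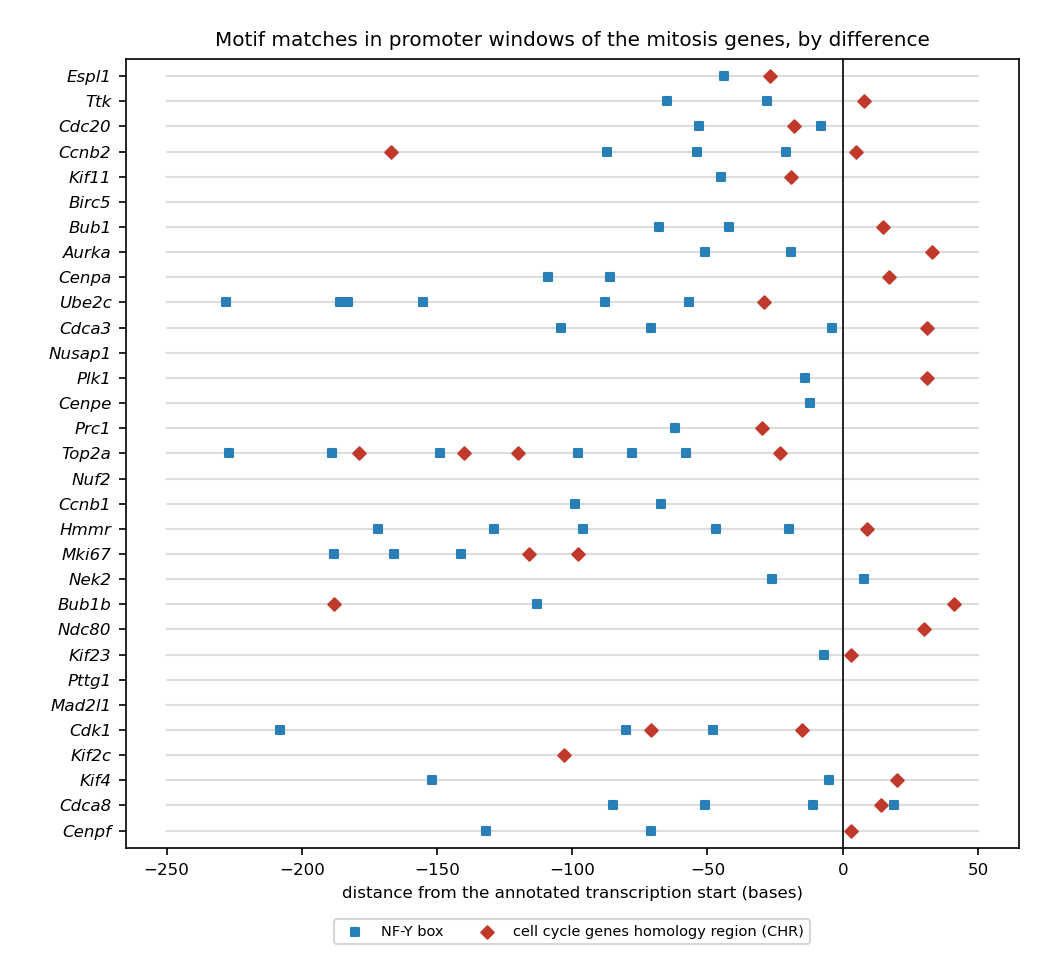
Motif matches in the promoter windows of 31 mitosis genes (RefSeq, GRCm38.p6), with distance from the annotated transcription start in bases on the horizontal axis and genes ordered from the highest array difference at the top to the lowest, with the unmeasured Cenpf last. Blue squares are NF-Y boxes and red diamonds are CHR matches, both on either strand. Windows with both motifs stand at the top (Espl1, Ttk, Cdc20) and at the bottom (Kif4, Cdca8).

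The members with a CHR match and a measured difference, 22 genes, had a median log2 difference of 0.27 (range -0.19 to 0.58), against 0.23 (range 0.02 to 0.32) in the 8 without one. The members that hold CCAAT, 23 genes, had a median of 0.26, against 0.11 in 7 without it. That lower median depends on dim probes. Mad2l1, Pttg1 and Kif2c, without CCAAT, had means of 0.02, 0.04 and -0.02, but 0.23, 0.09 and 0.11 at their brightest probes. Cdk1, which holds CCAAT, likewise had a mean of -0.01 and 0.29 at its brightest probe. The splits were not tested. The ranges overlapped in both splits, and the highest and the lowest measured member with a window, Espl1 and Cdca8, hold both motifs.

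Signals below are those of 1 probe divided by the 75th percentile of the same array, which was 340.0 scanner units on the GATA1 siRNA array and 303.2 on the control siRNA array. A difference is the log2 ratio of GATA1 siRNA to control siRNA, averaged over the measured probes of a gene. A signal can be set against the same probe on the other array but not against another probe. Both arrays lie on 1 slide, where array position and group cannot be told apart. Well above background were 55.7% of gene probe spots on the GATA1 siRNA array and 53.3% on the control siRNA array, and no such spot was saturated. Gata1 itself had a signal of 11.6 in GATA1 siRNA cells and 54.1 in control siRNA cells, a log2 difference of -2.23. Of the defining mast cell markers, Kit stood at 211 in GATA1 siRNA cells and 206 in control siRNA cells. Cpa3 stood at 858 in GATA1 siRNA cells and 836 in control siRNA cells. Fcer1a stood at 508 in GATA1 siRNA cells and 571 in control siRNA cells. Ms4a2 stood at 23.5 in GATA1 siRNA cells and 23.4 in control siRNA cells. Kit and Cpa3 had the highest differences of the mast cell list, at 0.03 and 0.04. All 18 mast cell markers of the list were measured, and 14 of them were lower in GATA1 siRNA cells, with Tpsab1, a tryptase, lowest at -2.11.

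As a group the mitosis genes were slightly higher in GATA1 siRNA cells. The median difference over the 35 measured genes was 0.23, against 0.01 over all 20402 genes, and the quartiles of the members were 0.10 and 0.31, against -0.13 and 0.12 for all genes. The difference was above 0 in 30 of 35 members (85.7%), where 52.7% of all genes were above 0. At least 25% higher in GATA1 siRNA cells were 7 members (20%), against 7.3% of all genes, and 0 were at least 20% lower, the same fold downward, against 9.51%. That count of 7 depends on the processing, and so does the share of all genes. It was 3 with normexp background correction, where Aurkb stood at 0.14, Ttk at 0.07 and 3.38% of all genes passed. With the authors' deposited table it was 15, and 10.3% of all genes passed. None of the 35 reached 1.5-fold in either direction, which 1.83% of all genes did upward and 2.76% downward, or 2-fold, which 0.294% did upward and 0.608% downward. The members varied less among themselves (SD 0.18) than all genes did (SD 0.29). That spread is not particular to them. The other lists of cell division genes described below had SDs from 0.17 (kinetochore and centromere) to 0.22 (spindle, kinesins and cytokinesis). In RNA from whole cultures, more dividing cells and more RNA per dividing cell cannot be told apart. Just inside the 25% limit stood Birc5 and Kif11 (0.32 and 0.33), and just outside it Bub1 and Aurka (both 0.31).

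**Figure D2:**
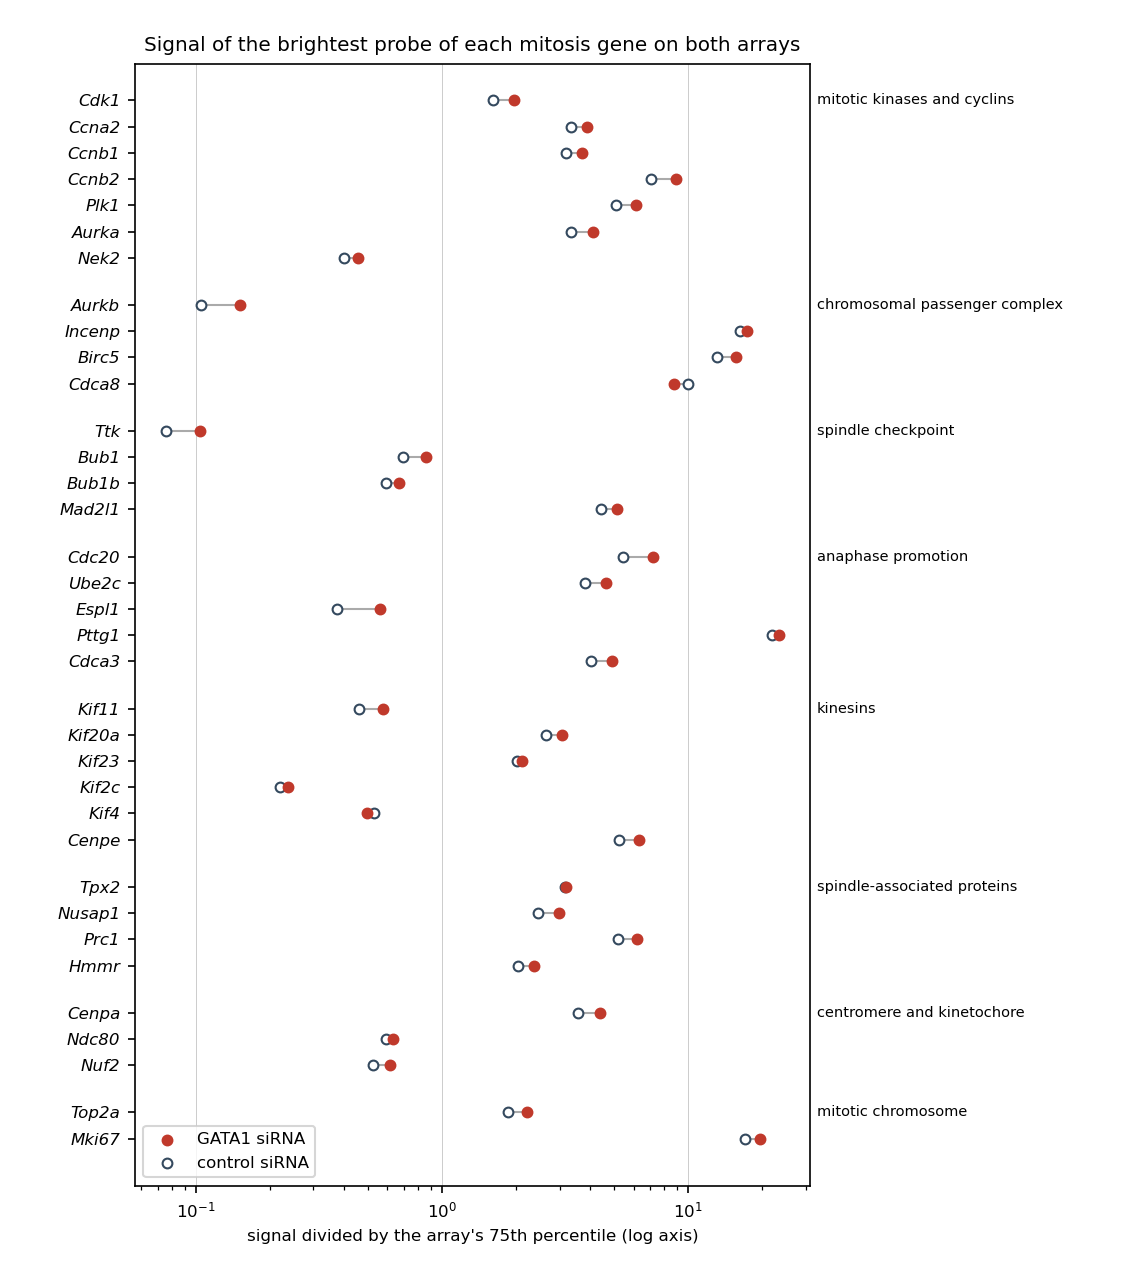
Signal of the brightest measured probe of each of the 35 mitosis genes, divided by the 75th percentile of its array, on a log axis. Filled red points are GATA1 siRNA and open points control siRNA, 1 array each. The red point lies to the right for 33 genes and to the left for Cdca8 and Kif4.

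The mitotic kinases and cyclins were higher by similar amounts, apart from Cdk1. Ccnb2, a B-type cyclin, had a signal of 8.94 in GATA1 siRNA cells and 7.05 in control siRNA cells, a difference of 0.34. Ccnb1, the other B-type cyclin, stood at 3.69 in GATA1 siRNA cells and 3.19 in control siRNA cells at its brightest probe. Its 3 probes agreed, with differences from 0.21 to 0.26 and a mean of 0.23. Ccna2, the A-type cyclin of S phase and early mitosis, had 3.87 in GATA1 siRNA cells and 3.34 in control siRNA cells (difference 0.21). Aurka, the Aurora kinase of the spindle poles, had 4.12 in GATA1 siRNA cells and 3.33 in control siRNA cells (0.31). Plk1, the Polo-like kinase of mitotic entry and exit, had 6.13 in GATA1 siRNA cells and 5.07 in control siRNA cells (0.27). Nek2, a centrosome kinase, was dimmer, at 0.454 in GATA1 siRNA cells and 0.399 in control siRNA cells (0.19). Over these 7 genes the median was 0.23, and 6 were above 0, where 52.7% of all genes were.

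Cdk1, the kinase that drives mitotic entry, has 3 probes that disagree, so its mean of -0.01 describes none of them. The probe with the brightest spots had 1.96 in GATA1 siRNA cells and 1.61 in control siRNA cells, a difference of 0.29. The probe next to it gave 0.35, from 0.296 in GATA1 siRNA cells and 0.232 in control siRNA cells. The remaining probe gave -0.67, but its signals of 0.0695 in GATA1 siRNA cells and 0.111 in control siRNA cells are 23.6 scanner units in GATA1 siRNA cells and 33.5 in control siRNA cells, near the lowest signals called well above background (13.3 in GATA1 siRNA cells and 15.2 in control siRNA cells). The first 30 of the 60 bases of each probe are shown to tell them apart, as the array design gives them and in lower case throughout.
Cdk1 brightest probe: ttcttaatttcctacgtataacttaattaa
Cdk1 neighbouring probe: aacttaattaacatgtaaatattattccat
Cdk1 dim probe: atacactaaaaatttgggtagccaggaggt
In that order the probes lie at chr10:68801072-68801131, chr10:68801053-68801112 and chr10:68799513-68799572 on the minus strand (mm9, as the array annotation gives it). The first pair shares 41 bases and both were higher in GATA1 siRNA cells.

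The chromosomal passenger complex, which corrects faulty spindle attachments and later guides cytokinesis, was uneven. Its kinase Aurkb had a difference of 0.53, which rests on 1 dim probe with signals of 0.152 in GATA1 siRNA cells and 0.105 in control siRNA cells. Birc5, the survivin subunit, was brighter and agreed over 3 probes, with differences from 0.26 to 0.36. At its brightest probe the signal was 15.6 in GATA1 siRNA cells and 13 in control siRNA cells. Incenp, the scaffold, differed by 0.09, with 17.3 in GATA1 siRNA cells and 16.2 in control siRNA cells at its brighter probe. Cdca8, the borealin subunit, had the lowest difference of all 35 members. Its signal was 8.72 in GATA1 siRNA cells and 10.0 in control siRNA cells, and both of its probes were lower, by -0.20 and -0.17. Aurkb stood at 0.14 with normexp background correction, below the median of 0.21 that the members then had, and has no value under the stricter filter on dim probes.

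Genes of the spindle checkpoint were above 0 in 4 of 4 cases, with a median of 0.25, where 52.7% of all genes were above 0. Ttk, the kinase MPS1 that starts the checkpoint signal, differed by 0.46, from dim signals of 0.104 in GATA1 siRNA cells and 0.0754 in control siRNA cells. Bub1, a checkpoint kinase of the kinetochore, is printed 10 times on each array and 8 of its spots were usable. They ranged from 0.812 to 0.879 in GATA1 siRNA cells and from 0.653 to 0.739 in control siRNA cells, without overlap. The mean difference was 0.31 ± 0.07 (SD over 8 spots), an error that covers the array and not the cells or animals. Bub1b, the checkpoint protein BUBR1, had 0.670 in GATA1 siRNA cells and 0.589 in control siRNA cells (0.19). Mad2l1, which binds and restrains CDC20, had 5.15 in GATA1 siRNA cells and 4.40 in control siRNA cells at its brightest probe (0.23). Its other probes were dim, at 0.15 and -0.33, and the mean over the 3 was 0.02. Over the ways of processing the value of Mad2l1 ran from -0.02 to 0.23, so its place above 0 depends on them.

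The genes grouped here under anaphase, which include an inhibitor of separase, were above 0 in 5 of 5 cases, with a median of 0.29. Of all genes 52.7% were above 0. Espl1, separase, had a difference of 0.58, with 0.557 in GATA1 siRNA cells and 0.373 in control siRNA cells. With normexp background correction it stood at 0.37, below Cdc20 at 0.46. Its 1 probe lies within chr15:102153644-102153882 on the plus strand (mm9). Cdc20 had 7.22 in GATA1 siRNA cells and 5.42 in control siRNA cells (0.41). The Cdc20 probe lies beside spots that differ strongly between the arrays, although the median difference of its 48 nearest measured spots was -0.0043. Ube2c, the ubiquitin-conjugating enzyme of the anaphase-promoting complex, gave 0.28 and 0.31 at its probes, the first from 4.64 in GATA1 siRNA cells and 3.82 in control siRNA cells. Cdca3, a mitotic entry factor that is itself a target of the complex, had 4.91 in GATA1 siRNA cells and 4.03 in control siRNA cells (0.28). Pttg1, the securin that holds separase inactive, differed little, at 23.4 in GATA1 siRNA cells and 22 in control siRNA cells at its brighter probe. Its 2 probes gave 0.09 and -0.007, with a mean of 0.04. Separase and its inhibitor thus showed different values on the same arrays, and the difference between them was not tested.

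The kinesins, motor proteins of the spindle, had a median of 0.15, and 4 of 6 were above 0, against 52.7% of all genes. Kif11, the motor that pushes spindle poles apart, had 0.576 in GATA1 siRNA cells and 0.459 in control siRNA cells (0.33). Cenpe, which carries chromosomes to the spindle equator, had 6.29 in GATA1 siRNA cells and 5.25 in control siRNA cells (0.26). Kif20a, a motor of cytokinesis, had 3.07 in GATA1 siRNA cells and 2.64 in control siRNA cells (0.22). Kif23, of the centralspindlin complex, differed by 0.09 over 2 probes, the brighter with 2.11 in GATA1 siRNA cells and 2.01 in control siRNA cells. Kif2c, which takes microtubules apart at centromeres, gave 0.11 and -0.14 at its 2 dim probes. Kif4, a chromosome-bound motor, was lower at its 1 probe, with 0.494 in GATA1 siRNA cells and 0.530 in control siRNA cells (-0.10).

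Among proteins that bind the spindle, Nusap1 had 2.98 in GATA1 siRNA cells and 2.45 in control siRNA cells (0.28). Prc1, which bundles microtubules of the central spindle, had 6.17 in GATA1 siRNA cells and 5.16 in control siRNA cells (0.26). Hmmr, a microtubule and hyaluronan binding protein, had 2.36 in GATA1 siRNA cells and 2.04 in control siRNA cells (0.21). Tpx2, the activator of Aurora A, stood apart. Its bright probe gave 3.19 in GATA1 siRNA cells and 3.15 in control siRNA cells (0.02), and its dim probe -0.35, so its mean was -0.17.

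The measured genes of centromere and kinetochore were all 3 above 0, against 52.7% of all genes. Cenpa, the histone variant that marks centromeres, had 4.38 in GATA1 siRNA cells and 3.55 in control siRNA cells (0.30). Ndc80 and Nuf2, partners in the complex that grips microtubules, gave 0.11 and 0.23. Ndc80 had 0.635 in GATA1 siRNA cells and 0.590 in control siRNA cells. Nuf2 had 0.614 in GATA1 siRNA cells and 0.523 in control siRNA cells at the only one of its 3 probes that was measured. Of the proteins of the mitotic chromosome, Top2a, the topoisomerase that untangles sister chromatids, had 2.21 in GATA1 siRNA cells and 1.85 in control siRNA cells (0.26). Mki67, the proliferation antigen that coats mitotic chromosomes, had 19.5 in GATA1 siRNA cells and 17.0 in control siRNA cells at its brighter probe, and its 2 probes gave 0.20 and 0.18.

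**Figure D3:**
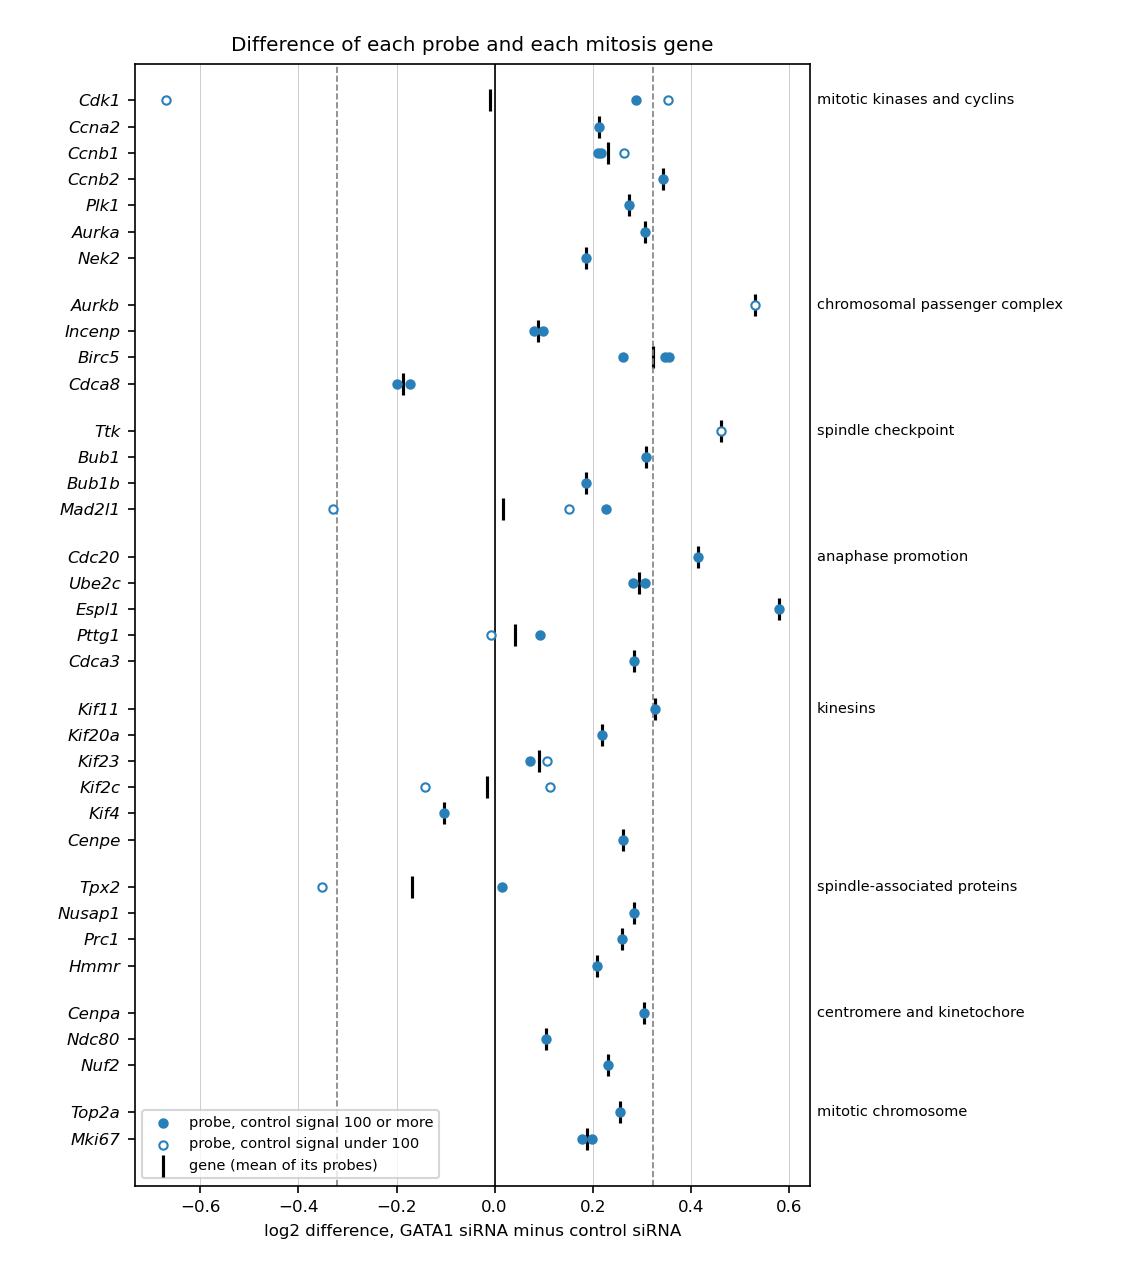
Log2 difference, GATA1 siRNA minus control siRNA, of each measured probe (points) and of each gene (black bars, the mean of its probes), by step of mitosis. Open points have control signals under 100 scanner units, and dashed lines mark 25% higher and 20% lower. Most filled points lie between 0 and 0.4, while the open points scatter from -0.67 to 0.53.

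Signal strength set how firm these values are. Among the 39 member probes with control siRNA signals of 100 scanner units or more, 36 were above 0, with a median of 0.23, an SD of 0.15 and a range of -0.20 to 0.58. Among the 12 dimmer probes 7 were above 0, with a median of 0.11, an SD of 0.36 and a range of -0.67 to 0.53. Of all 28740 measured probes, at any signal, 52.3% were above 0, a share near that of the 12 dimmer probes. Some probes are printed 10 times, and between their spots the difference had an SD with a median of 0.27 at control signals under 50, 0.10 from 50 to 500, 0.05 from 500 to 5000 and 0.03 above that. The differences of Ttk and Aurkb (0.46 and 0.53) come from control siRNA signals of 22.9 and 31.8 scanner units, where that SD is 0.27. The smaller difference of Ccnb2 (0.34) comes from a signal range where it is 0.05. The error that the scanner software gives per probe, which includes a fixed share of the signal, was wider at 0.20 to 0.33. Of 12 genes with several measured probes, 7 had all probes on the same side of 0 and 5 did not (Cdk1, Mad2l1, Pttg1, Kif2c and Tpx2). In each of those 5 a probe under 100 scanner units carried the opposite sign.

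**Figure D4:**
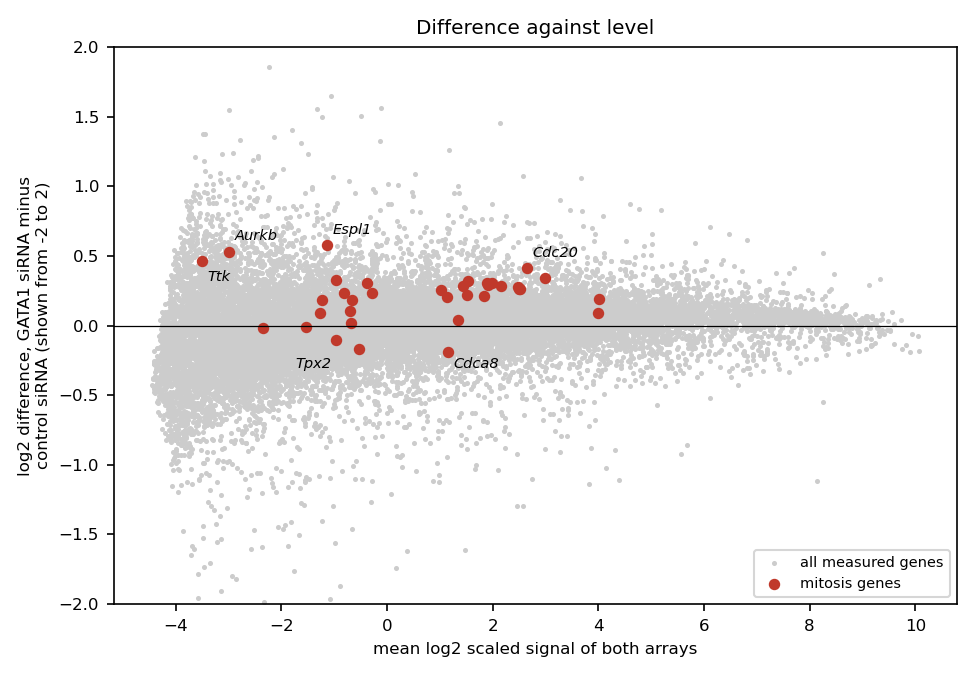
Log2 difference, GATA1 siRNA minus control siRNA, against the mean log2 scaled signal of both arrays, for all 20402 measured genes (grey) and the 35 mitosis genes (red). The scatter of all genes widens at low signal, where Ttk and Aurkb lie, and the brighter mitosis genes form a band above 0. Cdca8 lies below it.

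By median, other genes of cell division were shifted less. A further 4 lists of mitosis genes, which hold none of the members, had 135 measured genes together with a median of 0.11. Of these 102 (75.6%) were above 0, against 52.7% of all genes. At least 25% higher were 11. At least 20% lower were 2, where 9.51% of all genes were. The 11 are 8.15% of the 135, close to the 7.3% of all genes. By list, the share above 0 ran from 71.8% (spindle, kinesins and cytokinesis) to 80.5% (kinetochore and centromere). The share at least 25% higher ran from 0% (condensin, cohesin and chromatids) to 16.2% (mitotic entry, anaphase-promoting complex and exit). In the members these shares were 85.7% and 20%. Kinetochore and centromere genes had a median of 0.13 over 41 genes. Their highest value was Mad1l1, a checkpoint partner of Mad2l1, with 5.08 in GATA1 siRNA cells and 2.98 in control siRNA cells (0.77), and their lowest Cenpu, a centromere protein, at -0.27. Spindle, kinesin and cytokinesis genes had a median of 0.17 over 39 genes, from Plk4, the kinase of centriole duplication, at -0.54 to Fam83d, a spindle protein, at 0.77. Both are dim, with control signals of 52.6 and 26.7 scanner units. Condensin, cohesin and chromatid genes had a median of 0.08 over 20 genes, and 5 of them were below 0. The condensin subunit Smc4 stood at 0.28, from 17.5 in GATA1 siRNA cells and 14.4 in control siRNA cells. Another condensin subunit, Ncapg, was the lowest of the list at -0.49, from a dim control signal of 22.1 scanner units.

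Genes of mitotic entry, the anaphase-promoting complex and exit had a median of 0.08 over 37 measured genes. The highest were the Cdk1-activating phosphatases Cdc25c (0.77, dim) and Cdc25b (0.57) and the Polo-like kinase Plk2 (0.52, dim). Wee1, the kinase that inhibits Cdk1, came next at 0.50 and was picked out after its value was seen. Cdc25b had 2.04 in GATA1 siRNA cells and 1.38 in control siRNA cells, and Wee1 had 1.28 in GATA1 siRNA cells and 0.908 in control siRNA cells. The related phosphatase Cdc25a and the Cdk1-inhibiting kinase Pkmyt1 were nearly equal on the arrays, with 1.92 in both for Cdc25a and with 5.82 in GATA1 siRNA cells and 5.80 in control siRNA cells for Pkmyt1.

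The list of DREAM, MuvB and FOXM1 regulators, which also holds E2f, Rb and Nfy genes, had a median of 0.07 over 23 measured genes. Of these 15 (65.2%) were above 0, against 52.7% of all genes. Foxm1, which activates late-cycle genes, had 0.809 in GATA1 siRNA cells and 0.679 in control siRNA cells (0.25). The highest of the list was E2f5 at 0.62, from a dim control signal of 19.0 scanner units, and the lowest E2f3 at -0.27. G1 cyclins, their kinases and inhibitors had a median of 0.14 over 19 genes, with the inhibitor Cdkn2b highest at 0.53 and Ccne2 lowest at -0.33. Of these 16 (84.2%) were above 0, against 52.7% of all genes, and 3 (15.8%) were at least 25% higher, against 7.3%. Both shares were near those of the members (85.7% and 20%). DNA replication genes, which act in S phase, had a median of 0.08 over 50 genes. Of these 37 (74%) were above 0, against 52.7% of all genes, and 1 (2%) was at least 25% higher, against 7.3%. That gene, Orc1, is dim (18.8 scanner units in control siRNA cells), and Cdc45 was the lowest at -0.36. The difference between the mitosis and replication lists was not tested.

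**Figure D5:**
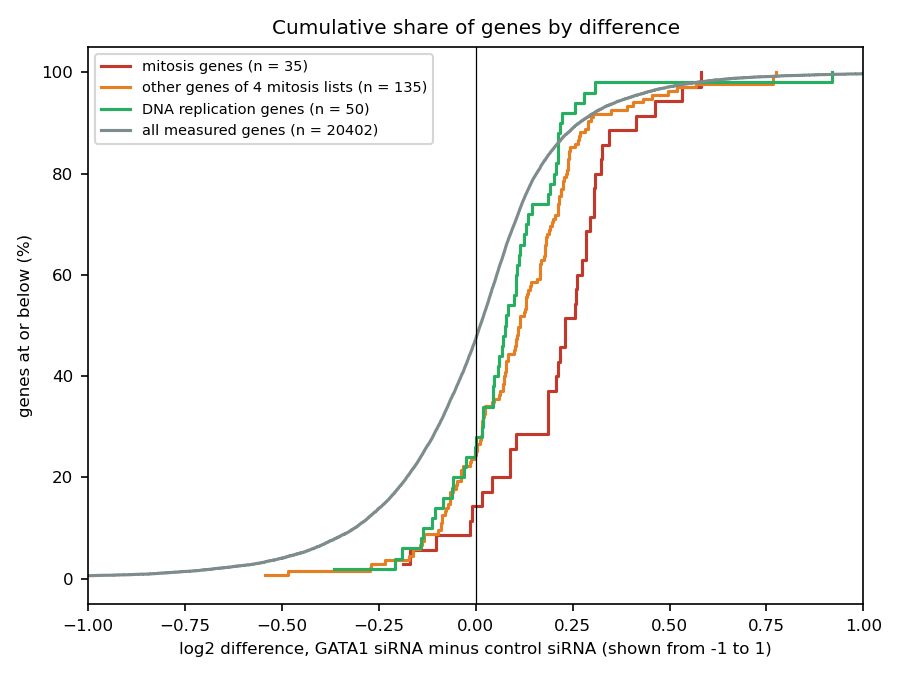
Cumulative share of genes (%) by log2 difference, GATA1 siRNA minus control siRNA, for 35 mitosis genes, 135 other genes of mitosis lists, 50 DNA replication genes and all 20402 measured genes. Between 0 and 0.5 the curve of the mitosis genes lies farthest to the right, and at its median of 0.23 the replication curve has met that of all genes.

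Genes listed as markers of other cells also differed between the arrays. The RNA is from whole cultures, so a listed marker need not come from the cell type that names its list. The counts above 0 below stand beside 52.7% of all measured genes above 0. Of 20 neutrophil and precursor markers 17 were measured and 15 were above 0, with a median of 0.50 and a summed level of 248 in GATA1 siRNA cells and 223 in control siRNA cells. Among granule genes of the precursors Elane and Mpo stood at 0.33 and 0.40, while Ctsg, with 79.9 in GATA1 siRNA cells and 103 in control siRNA cells, stood at -0.37. A summed level adds probes of unequal response, so a few bright ones such as Ctsg set most of it. The markers Mmp9, Fcnb and Retnlg were not measured on both arrays. Of 17 macrophage and monocyte markers 14 were measured and 12 were above 0, with a median of 0.39 and a summed level of 41.7 in GATA1 siRNA cells and 29.2 in control siRNA cells. Progenitor markers had a median of 0.37 over 11 measured genes, 9 of them above 0. Their summed level was 308 in GATA1 siRNA cells and 236 in control siRNA cells. Most of it was Ly6a, with 241 in GATA1 siRNA cells and 181 in control siRNA cells. Mast cell markers had a median of -0.12 over 18 genes, 4 of them above 0, and a summed level of 4049 in GATA1 siRNA cells and 4357 in control siRNA cells. Basophil markers had a median of 0.29 over 6 genes and a summed level of 844 in GATA1 siRNA cells and 697 in control siRNA cells. Most of that sum was Gzmb, with 615 in GATA1 siRNA cells and 504 in control siRNA cells. Eosinophil markers had a median of -0.33 over 10 genes, with 26.6 in GATA1 siRNA cells and 35.2 in control siRNA cells. Of 14 erythroid markers 8 were measured, and Klf1 and Alas2 were among those that were not. Of the 8, 5 were above 0 and 3 below. Their summed level was 8.52 in GATA1 siRNA cells and 6.92 in control siRNA cells. Hba-a2 had the highest difference, with 3.60 in GATA1 siRNA cells and 1.80 in control siRNA cells. Epor was the lowest at -1.58, with 0.157 in GATA1 siRNA cells and 0.470 in control siRNA cells. Megakaryocyte markers summed to 80.3 in GATA1 siRNA cells and 82.4 in control siRNA cells, and lymphocyte markers to 7.43 in GATA1 siRNA cells and 7.29 in control siRNA cells, with Cd3g among those not measured. The part of these cells in the values of the mitosis genes was not tested.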

How the data were processed

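Gene expression was measured on 1-colour Agilent arrays, 1 for each siRNA. RNA was purified on NucleoSpin columns and Cy3-labelled from 100 ng, per the labels. The deposited scanner files hold spot intensity, which Agilent Feature Extraction 10.7.3.1 had background-subtracted and detrended, with surrogates for dim spots, per the file headers. The authors also deposited a table of intensity, in which each value equals the processed signal over the array's median across 59305 gene probe spots, as matching showed. How it was made is not given in the sources used here.

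Outlier spots on either array (133 on GATA1 siRNA, 117 on control siRNA) were dropped. Log2 signals were averaged over the spots of each probe, and each array was divided by its 75th percentile over 55659 probes. A probe counted as measured where well above background on both arrays. The number of arrays limits the precision. The calculation was tested on simulated data (Python 3.11.15). Alternatives used limma 3.58.1 in R 4.3.3, with a normexp offset of 50 and a loess span of 0.4. Symbols were updated through RefSeq. The members, lists and fold limits were chosen with earlier results of these data known. All 36 members are named, and beside them Gata1, markers, and genes among the 3 highest or lowest of each other list. Wee1, Cdc25a and Pkmyt1 fall outside this rule and were picked out after their values were seen.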

Additional observations from a re-analysis of the deposited data

How the results depend on the processing

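Over 10 other ways of processing and 1 more added after the data were seen (each probe centred on its 48 nearest measured spots), the median of the mitosis genes stayed between 0.21 and 0.29. Between 29 and 33 members were above 0, and the distance to the median of all genes lay between 0.21 and 0.31. The median of all genes itself moved from -0.09 without the filter on dim probes (40.1% of genes above 0) to 0.07 with the authors' table (64.1%). With the authors' table the median of the members was 0.29, 15 members were at least 25% higher and 2 at least 1.5-fold. Of all genes, 10.3% were then at least 25% higher. With normexp background correction 3 members and 3.38% of all genes were at least 25% higher, and Aurkb was at 0.14 and Ttk at 0.07. At least 1.5-fold apart was 1 member with scaling to the median of measured probes, 1 with quantile scaling and 2 with loess scaling, against 0 as reported. No member was 2-fold apart under any of these 11. With the brightest probe of each gene, Cdk1 stood at 0.29, Mad2l1 at 0.23, Kif2c at 0.11 and Tpx2 at 0.02. With patches of the slide left out, Cdc20 has no value. The cause of these moves was not tested. No paired analysis was possible because each siRNA was measured on 1 array.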
